A study of Homo sapiens with 12 samples.

Results

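The surface antigens used to recognise and sort hemogenic endothelium (HE) and hematopoietic progenitor cells (HPCs) were examined as transcripts in human embryonic stem cells (hESCs) with and without GATA2. The 10 genes were CD34, SPN (CD43), PTPRC (CD45), CD44, CD38, THY1 (CD90), NT5E (CD73), CXCR4 (CD184), PROM1 (CD133) and ENG (CD105), and they were chosen by gene symbol from the 56266 genes listed for every library. RNA-Seq had been performed on H1, an established human ESC line, and on H1-GATA2-/-, 1 clone of H1 in which both GATA2 alleles were disrupted by a PGK-driven neomycin resistance cassette. There were 10 libraries in 5 groups of 2 replicates. KO hESCs were undifferentiated H1-GATA2-/- cells. WT HEs and KO HEs were CD34+CD31+CD43- cells obtained from H1 and from H1-GATA2-/- on day 8 of co-culture with OP9, a mouse bone marrow stromal line that supports blood formation. WT HPCs and KO HPCs were the CD34+CD43+ cells of day 9. Undifferentiated WT H1 was not analysed here, so the hESC stage is given for the knockout line alone.

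In the embryo and in this culture, blood progenitors arise from specialised endothelial cells that round up, lose endothelial junctions and gain blood cell antigens, a step called the endothelial to hematopoietic transition (EHT). CD34 and CD43 are both heavily glycosylated sialomucins, long rod-like proteins on the cell surface, and the order in which they appear on differentiating cells is the usual way to follow this step. CD34 marks endothelium and early blood progenitors alike, CD43 marks the committed blood cell, and CD45 is usually acquired later. CD44, CD73, CD90 and CD105 are carried by endothelial and mesenchymal cells in various combinations, so each of them is read together with the others. GATA2 is a zinc finger transcription factor of blood progenitors and endothelium.

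The sort used magnetic enrichment on CD34 and then antibodies to CD34, CD31, CD43 and TRA-1-85, an antigen of human cells that excludes the mouse stroma. CD34 and SPN were therefore gates, and what the gate fixed between stages is a check of the labels and not a finding. All values are gene-level TPM, transcript abundances scaled for transcript length and for the total of the library, which can be compared between genes but keep no sequencing depth. The deposited TPM summed to between 998299 and 999106 per library, and between 16004 and 17335 genes reached 1 TPM. Mitochondrial transcripts made up 15.1% and 14.8% of TPM in the KO HPC libraries, 8.66% and 9.61% in the WT HPC libraries and between 6.29% and 9.35% in the other 6. The TPM of GATA2 did not check the genotype labels: it was 107 and 78.0 in WT HEs, 111 and 94.1 in KO HEs, 290.1 and 204 in WT HPCs, and 112 and 83.8 in KO HPCs, and a disrupted allele can still give an aberrant transcript. Defining endothelial and pluripotency genes matched the labelled stages. The summed TPM of 14 endothelial genes ran from 4738 to 5873 in HEs, from 871 to 1291 in HPCs and was 119 in both hESC libraries, and that of 8 pluripotency genes was 5522 and 6278 in hESCs against at most 377 in sorted cells.

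CD34 (chr1:208054317-208084747 in GRCh37, minus strand), the sialomucin of endothelial and blood progenitors, had the highest TPM of the 10 genes in both HE groups. In undifferentiated KO hESCs it stood at 1.04 and 1.01 TPM in replicates 1 and 2. It reached 641 and 605 TPM in WT HEs and 1059.6 and 925 TPM in KO HEs. In HPCs, it was 181 and 114 TPM in WT cells and 242 and 187 TPM in KO cells. The order of the group means was KO HEs (992 ± 95.2, SD, n = 2), WT HEs (623 ± 24.8), KO HPCs (214 ± 38.7), WT HPCs (148 ± 47.8) and KO hESCs, and no 2 neighbours in this order overlapped. Thus the KO libraries lay above the WT libraries at both sorted stages, although every one of these cells had passed a gate for CD34 protein.

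SPN (chr16:29674300-29682197, plus strand), which encodes the leukocyte sialomucin CD43, was under 9 TPM in hESCs and in every library sorted as CD43-. It was listed at 1.34 TPM in both KO hESC libraries, at 8.81 and 4.86 TPM in WT HEs and at 7.48 and 1.76 TPM in KO HEs. In HPCs it was 104 and 108 TPM in WT cells and 98.0 and 106 TPM in KO cells. The genotypes overlapped at each sorted stage, and all HPC libraries lay above all others. The ratio of CD34 to SPN TPM in a library summarised the sort: 72.7 and 125 in WT HEs and 142 and 526 in KO HEs, against 1.74 and 1.05 in WT HPCs and 2.47 and 1.77 in KO HPCs. The ratios of KO libraries lay above those of WT libraries at both stages without overlap. CD34 itself had this order at both stages and SPN did not, so the ratio is not independent of the CD34 order. KO HE replicate 2, with the lowest SPN of the HEs, stood apart from the other HE libraries.

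**Figure D1:**
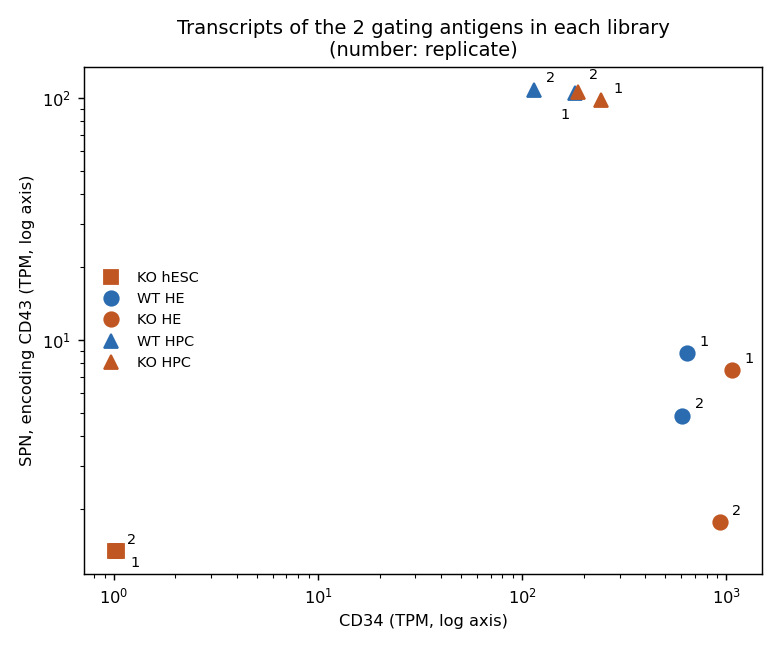
TPM of CD34 (horizontal, log axis) and SPN (vertical, log axis) in each of the 10 libraries, with replicate numbers beside the points. The HPC libraries sit between 98.0 and 108 TPM of SPN, the HE libraries between 605 and 1059.6 TPM of CD34, and both KO hESC libraries near 1 TPM of each.

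CD44 (chr11:35160429-35253949, plus strand), the receptor for hyaluronan, was abundant at both sorted stages. KO hESCs had 20.6 and 11.25 TPM. WT HEs had 171 and 200.3 TPM, and KO HEs had 192 and 206 TPM. WT HPCs had 153 and 112 TPM, and KO HPCs had 181 and 134 TPM. Neighbours among the 4 sorted groups overlapped in the order of means, and the hESC libraries lay below them all. Within each genotype, however, the HPC libraries lay below the HE libraries without overlap.

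ENG (chr9:130577292-130616937, minus strand), which encodes endoglin, a co-receptor for BMP9 and TGF-β on endothelial cells, was an HE gene here. It was 4.14 and 3.80 TPM in KO hESCs, 129 and 138 TPM in WT HEs, and 187 and 166 TPM in KO HEs. In HPCs it was 46.9 and 27.9 TPM in WT cells and 28.2 and 28.3 TPM in KO cells. KO HEs lay above WT HEs without overlap, whereas the HPC genotypes overlapped.

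NT5E (chr6:86159302-86205509, plus strand), the ecto-enzyme CD73 that turns extracellular AMP into adenosine, was an HE gene that lay under 1 TPM in WT HPCs and above 3 TPM in KO HPCs. It was 1.89 and 1.82 TPM in KO hESCs, 56.0 and 72.1 TPM in WT HEs and 71.9 and 98.0 TPM in KO HEs. WT HPCs had 0.35 and 0.91 TPM and KO HPCs had 4.86 and 3.18 TPM. The HE genotypes overlapped narrowly and the HPC genotypes did not, with the hESC values lying between the KO and WT HPC values.

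THY1 (chr11:119286186-119295695, minus strand), the GPI-anchored antigen CD90, was as abundant in undifferentiated cells as in HE. KO hESCs had 488 and 473 TPM, WT HEs had 448 and 423 TPM, and KO HEs had 442 and 532 TPM. WT HPCs had 35.9 and 25.05 TPM, and KO HPCs had 53.15 and 16.2 TPM, the widest ratio between replicates of the gene. WT HEs lay just below the hESCs without overlap. All HPC libraries were below all others, and the genotypes overlapped in HEs and in HPCs.

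CXCR4 (chr2:136871919-136876747, minus strand), the receptor for the chemokine CXCL12, was low throughout. It was 0.48 and 0.70 TPM in KO hESCs, 5.90 and 5.93 TPM in WT HEs, and 4.42 and 10.95 TPM in KO HEs. WT HPCs were listed at 0 and 0.68 TPM and KO HPCs at 1.71 and 0.66 TPM. Every HE library lay above every other library, while the genotypes overlapped at both stages.

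PROM1 (chr4:15964699-16086001, minus strand), the pentaspan membrane protein CD133 of stem and epithelial cells, was a gene of the undifferentiated line. KO hESCs had 36.5 and 49.7 TPM. WT HEs had 1.24 and 2.97 TPM, KO HEs 2.38 and 1.47 TPM, WT HPCs 1.68 and 0 TPM, and KO HPCs 0.76 and 0.27 TPM. No 2 neighbouring sorted groups were apart.

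The leukocyte enzymes PTPRC (chr1:198607587-198726605, plus strand), the tyrosine phosphatase CD45, and CD38 (chr4:15779898-15854855, plus strand), an NAD-consuming ecto-enzyme, were at the edge of detection. PTPRC was listed at 0 in all 4 HE libraries, at 0.98 and 0.92 TPM in WT HPCs and at 0.68 and 3.09 TPM in KO HPCs. It was also listed at 0.56 and 3.06 TPM in KO hESCs, so the HPCs and the undifferentiated cells covered nearly the same range. CD38 was listed at 0 in 7 of 10 libraries and at 0.83 TPM in KO hESC replicate 2, 0.36 TPM in WT HPC replicate 1 and 0.41 TPM in KO HPC replicate 1. It did not reach 1 TPM in 2 libraries, the filter on low values, and is the 1 gene of the 10 that was not tested. Genes used by every cell were not at 0 in these libraries, with TBP between 12.04 and 24.6 TPM.

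The first comparison asked which of these antigens differed at the transcript level between HEs and HPCs. HEs were sorted on day 8 and HPCs on day 9 by different gates, so stage, gate and co-culture day cannot be told apart. In this comparison, rose and fell mean higher and lower in HPCs than in HEs. In WT cells, 1 of the 9 genes tested rose and 5 fell, and the same 6 passed in KO cells in the same directions. SPN, the gated antigen, rose. CD34, ENG, NT5E, THY1 and CXCR4 fell, the steepest being NT5E, whose mean TPM was 102-fold lower in WT HPCs than in WT HEs and 21.1-fold lower in KO HPCs than in KO HEs. The WT ratio rests on HPC values under 1 TPM and was 70.4-fold without WT HPC replicate 1 and 183-fold without WT HPC replicate 2. CD44, PROM1 and PTPRC passed in neither genotype. By limma on log2(TPM + 1) over 21543 genes with Benjamini-Hochberg adjustment at 0.05, 9.91% of all genes passed in WT cells (3.32% higher and 6.59% lower in HPCs), and 12.7% passed in KO cells (5.5% higher and 7.24% lower). The KO split turned from 1185 higher and 1560 lower to 1566 and 1357 when TPM were rescaled without mitochondrial genes, which moved the median of all genes from 0.03 to 0.13. The 2 replicates of a group are not stated to be separate cultures, so p-values measure the spread between these libraries, which may be technical.

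On the log2 scale, CD34 fell by 2.11 (95% interval -2.62 to -1.60, SE 0.22, adjusted p = 0.000833) in WT cells. In KO cells the difference of CD34 was -2.21 (-2.72 to -1.70, adjusted p = 0.000576). These were 4.22-fold and 4.63-fold lower mean TPM, in cells that were CD34+ at both stages by protein. ENG differed by -1.85 (-2.38 to -1.32, adjusted p = 0.00176) in WT cells and by -2.60 (-3.13 to -2.07, adjusted p = 0.000396) in KO cells. The endoglin transcript was therefore 3.56-fold and 6.24-fold lower in HPCs. In these bulk samples, fewer cells of a type and less RNA per cell cannot be told apart.

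NT5E differed by -5.33 (-6.04 to -4.62, adjusted p = 0.000129) in WT cells and by -4.10 (-4.81 to -3.39, adjusted p = 0.000235) in KO cells. THY1 differed by -3.82 (-4.80 to -2.83, adjusted p = 0.00108) and by -3.99 (-4.98 to -3.003, adjusted p = 0.000722), or 14.3-fold and 14.03-fold lower in mean TPM, the KO ratio being 30.02-fold without KO HPC replicate 1 and 9.16-fold without KO HPC replicate 2. Both antigens also mark mesenchymal cells, and the summed TPM of 9 stromal genes moved with them. That sum was between 409.7 and 720 in HEs, between 108 and 249 in HPCs, and 80.8 and 124 in KO hESCs. Of the 9 stromal genes, 3 fell in each genotype and 1 rose in WT cells, POSTN (2.16, adjusted p = 0.0304), an extracellular matrix protein. Over all tested genes, 6.59% fell in WT and 7.24% in KO cells, and 3.32% rose in WT cells. COL3A1, a fibrillar collagen, was between 131 and 229 TPM in HEs and at most 9.85 TPM in HPCs. LUM also fell in both genotypes (-4.22 in WT and -2.22 in KO cells). It was 22.9 and 13.4 TPM in WT HEs, 4.65 and 5.54 TPM in KO HEs and 0 in 3 of 4 HPC libraries. DCN was at most 1.78 TPM in any library. THY1 did not follow the stromal sum in KO hESCs, where it was high. The gate of both stages required CD34 and TRA-1-85, and that of HEs also CD31, an antigen of endothelium, and the part of stromal cells in these falls was not tested.

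SPN rose by 3.82 (2.75 to 4.89, adjusted p = 0.00151) in WT cells and by 4.41 (3.34 to 5.48, adjusted p = 0.000660) in KO cells, a change that the CD43 gate fixed in direction. CXCR4 differed by -2.42 (-3.52 to -1.31, adjusted p = 0.0154) in WT cells and by -1.92 (-3.03 to -0.82, adjusted p = 0.0336) in KO cells. The CXCR4 calls were the least stable of the set. In WT cells the adjusted p was 0.0839 without WT HE replicate 1, 0.0909 without WT HE replicate 2 and 0.0876 without WT HPC replicate 1. In KO cells it was between 0.0566 and 0.1961 without either hESC library, either WT HE library, KO HE replicate 2 or either KO HPC library, 0.1504 with a pseudocount of 0.1 and 0.0751 without the filter on low values.

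CD44 differed by -0.50 (-1.13 to 0.14, adjusted p = 0.366) in WT cells and by -0.36 (-0.99 to 0.28, adjusted p = 0.478) in KO cells, intervals that reach a change of about 1 log2 unit downward. PROM1 differed by -0.87 (-2.07 to 0.34, adjusted p = 0.411) and by -0.95 (-2.16 to 0.26, adjusted p = 0.302). For PTPRC no fold is given, since it was listed at 0 in all HEs. When the fit held only the 4 libraries of a comparison, none of the 9 genes passed in either genotype, with adjusted p between 0.0576 and 0.203 for the 6 above. None of the 21543 genes passed in those limma fits, while 4423 in WT and 5040 in KO cells had an unadjusted p under 0.05.

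**Figure D2:**
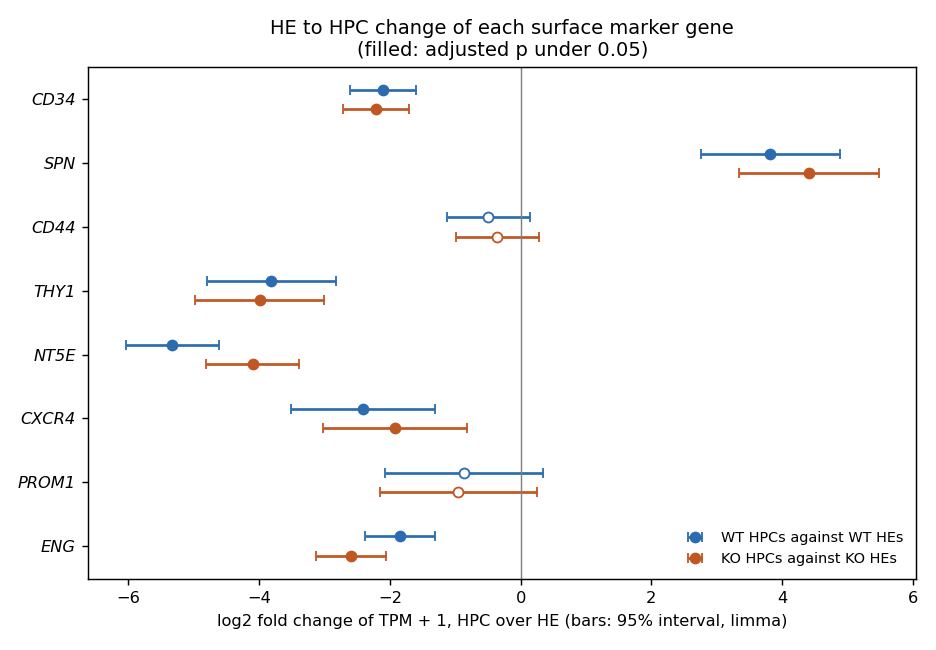
Difference between HPCs and HEs for 8 tested genes as log2 fold change of TPM + 1 (horizontal axis), in WT and KO cells, with 95% limma intervals as bars and filled points for adjusted p under 0.05. SPN lies at 3.82 and 4.41, CD44 and PROM1 have intervals that span 0, and the other 5 lie between -1.85 and -5.33.

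The bases before the start sites of CD34, ENG and NT5E are shown here, as the genes that fell in both genotypes and had 1 window each in the RefSeq table. CXCR4 and THY1 also fell in both. CXCR4 had 3 windows, which are not shown and held GGAA on either strand 4, 0 and 4 times, and THY1 had none. Each run is 250 bases ending at the base before the RefSeq start, read 5′ to 3′ on the gene's strand in GRCh38.p14, a later build than that of the gene positions above. Capitals mark GGAA or its complement TTCC, the core letters bound by ETS factors such as FLI1 and ERG. The CD34 run is chr1:207911126-207911375, the NT5E run is chr6:85449833-85450082 and the ENG run is chr9:127854659-127854908.
CD34: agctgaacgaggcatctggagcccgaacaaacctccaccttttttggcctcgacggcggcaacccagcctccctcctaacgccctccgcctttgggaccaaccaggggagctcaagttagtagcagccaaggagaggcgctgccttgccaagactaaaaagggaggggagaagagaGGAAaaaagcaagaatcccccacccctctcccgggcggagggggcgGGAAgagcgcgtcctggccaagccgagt
NT5E: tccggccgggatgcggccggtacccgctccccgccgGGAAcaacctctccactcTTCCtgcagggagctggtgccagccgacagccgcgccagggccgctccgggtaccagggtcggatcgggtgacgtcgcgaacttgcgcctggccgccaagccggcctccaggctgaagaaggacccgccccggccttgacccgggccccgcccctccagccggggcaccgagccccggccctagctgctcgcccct
ENG: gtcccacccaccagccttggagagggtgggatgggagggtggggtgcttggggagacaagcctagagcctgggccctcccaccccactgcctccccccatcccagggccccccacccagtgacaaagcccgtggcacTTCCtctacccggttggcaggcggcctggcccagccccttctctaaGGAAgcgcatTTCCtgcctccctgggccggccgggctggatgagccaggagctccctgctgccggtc

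GGAA was found on either strand 2 times before CD34, 2 times before NT5E and 3 times before ENG, and 92.7% of the 35116 promoter windows of this length held it, so its presence does not set the 3 genes apart. The letters GATAA, at the core of sites for the family of GATA2, were searched on both strands and were in 0 of 13 windows belonging to 8 of the 10 genes, against 20.4% of all windows. The letters TGTGGT, at the core of sites for RUNX factors, were likewise in 0 of the 13 windows, against 11% of all. No match says only that these letters are not in these windows. SPN and THY1 were not matched in this table.

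The comparisons with undifferentiated cells, made within the knockout line, asked which antigens differed between hESCs and the sorted stages. Of the 9 genes tested, 5 were higher and 1 was lower in KO HEs than in KO hESCs, where 30% of all genes passed (13.9% higher and 16.1% lower). CD34 rose by 8.93 on the log2 scale (8.42 to 9.44, adjusted p = 1.46e-07), a 968-fold difference in mean TPM. HEs were enriched and gated on CD34 and the hESCs were not, so the direction for CD34, 1 of the 5, was fixed by the sort and is a check of the labels. The HE gate also required CD31, an antigen of endothelium, and its part in the other rises was not tested. ENG rose by 5.16 (4.62 to 5.69, adjusted p = 2.26e-06), NT5E by 4.90 (4.19 to 5.60, adjusted p = 1.32e-05) and CD44 by 3.62 (2.98 to 4.26, adjusted p = 3.37e-05). Thus CD44, CD73 and CD105 transcripts were above their hESC level by day 8, whereas CD90 was not among the genes that passed. CXCR4 was higher by 2.34 (1.24 to 3.45, adjusted p = 0.00673), a call lost without KO hESC replicate 1 (adjusted p = 0.0580) or without KO HE replicate 2 (0.0509). PROM1 fell by 3.92 on the log2 scale (-5.12 to -2.71, adjusted p = 0.000708).

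THY1 differed by 0.01 between KO HEs and KO hESCs (-0.98 to 1.00, adjusted p = 1), an interval that admits a difference of up to about 1 log2 unit either way. SPN differed by 1.05 (-0.02 to 2.11, adjusted p = 0.131) and by 1.86 without KO HE replicate 2 (adjusted p = 0.00830), the HE library in which it was lowest. PTPRC, listed at 0 in all HEs and detected in both KO hESC libraries, did not pass (adjusted p = 0.102), and CD38 was not tested. In KO HPCs against KO hESCs, 4 of the 9 genes were higher and 2 lower, where 30.6% of all genes passed (14.2% higher and 16.4% lower). CD34 was higher by 6.72, SPN by 5.46, CD44 by 3.27 and ENG by 2.56, with adjusted p of at most 8.34e-05, the directions for CD34 and SPN being those of the gate. PROM1 was at -4.87 (adjusted p = 0.000217) and THY1 at -3.98 (adjusted p = 0.000220). NT5E differed by 0.79 (0.09 to 1.50, adjusted p = 0.0872) and CXCR4 by 0.42 (-0.69 to 1.52, adjusted p = 0.562), so neither passed above the undifferentiated level in HPCs. PTPRC differed by 0.06 (-1.18 to 1.30, adjusted p = 0.966). These comparisons and the KO step from HE to HPC share their KO libraries.

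The main comparison of the study asked how GATA2-/- cells differed from WT cells of the same gate. None of the 9 genes passed between KO and WT HEs, where 4 of 21543 genes did (0.0186%). None passed between KO and WT HPCs either, where 13 did (0.0603%). PTPRC, 1 of the 9, was listed at 0 in every HE library, so its HE comparison could not pass. At an unadjusted p under 0.05 by limma, 1 of the 9 genes differed in HEs, CD34, against 4.85% of all genes, and 2 differed in HPCs, NT5E and CD34, against 8.94%. These were also the genes whose HPC libraries were higher in KO cells without overlap, 2 of 9 against 19.7% of all genes. The only antigen whose KO libraries lay above its WT libraries without overlap at both stages was CD34, a pattern held by 725 tested genes (3.37%). Apart from CD44 and ENG, each gene tested had an interval that reached 1 log2 unit or more at 1 or both stages, so differences of that size were not excluded with 2 libraries a group.

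CD34 was higher in KO HEs by 0.67 on the log2 scale (0.16 to 1.18, SE 0.22, adjusted p = 0.841), a 1.59-fold higher mean TPM. In HPCs the difference was 0.56 (0.05 to 1.07, SE 0.22, adjusted p = 0.502), or 1.45-fold. With the KO libraries all above the WT libraries, leaving out 1 library could not turn the sign. The extremes were 0.57 and 0.77 at day 8 and 0.23 and 0.90 at day 9. CD34 was one of the antigens of the gate, and whether the position of the gate differed between genotypes was not tested.

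NT5E had the largest genotype difference of the set, 1.62 in HPCs (0.92 to 2.33, SE 0.31, adjusted p = 0.205), where the mean TPM was 4.02 ± 1.19 in KO and 0.63 ± 0.40 in WT cells (SD, n = 2 each). It did not pass the threshold under any alternative, with differences between 1.37 and 2.58 and adjusted p between 0.149 and 0.584. In HEs the NT5E difference was 0.40 (-0.31 to 1.10, adjusted p = 1). The difference of the 2 differences was 1.23 (0.23 to 2.23, adjusted p = 0.755), so a stage-dependent genotype difference of CD73 was not shown. The KO HPC libraries had the higher mitochondrial share, and with TPM rescaled without mitochondrial genes the HPC difference was 1.76 for NT5E and 0.66 for CD34. The summed TPM of the 9 stromal genes was 205 and 128 in KO HPCs and 249 and 108 in WT HPCs.

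ENG differed by 0.40 in HEs (-0.13 to 0.93, adjusted p = 1), where KO and WT libraries did not overlap, as held for KO above WT in 13.8% of all genes. In HPCs the ENG difference was -0.35 (-0.88 to 0.18, adjusted p = 0.699). The HPC difference less the HE difference was -0.75 (-1.50 to 0.0015, adjusted p = 0.842). For SPN the KO difference was -0.65 in HEs (-1.71 to 0.42) and -0.06 in HPCs (-1.12 to 1.01). CD44 differed by 0.11 in HEs (-0.53 to 0.74) and by 0.25 in HPCs (-0.39 to 0.88). These intervals leave room for differences of up to about 1 log2 unit in CD44 and more in SPN.

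THY1 differed by 0.15 in HEs (-0.83 to 1.14) and by -0.02 in HPCs (-1.01 to 0.97). CXCR4 differed by 0.22 (-0.89 to 1.32) and by 0.71 (-0.39 to 1.81), and PROM1 by -0.05 (-1.25 to 1.16) and -0.13 (-1.34 to 1.07). PTPRC differed by 0.43 in HPCs (-0.81 to 1.67), where 1 KO library was above and 1 below both WT libraries. The adjusted p of these genes was between 0.699 and 1. Over the 9 genes tested, the median difference was 0.15 in HEs and 0.25 in HPCs, beside -0.01 and 0.05 over all 21543 genes. PTPRC, listed at 0 in all HEs, counted as no difference in the HE median. For the HPC difference less the HE difference, CXCR4 was at 0.49, SPN at 0.59, PTPRC at 0.43 and CD44 at 0.14, and CD34 at -0.11, THY1 at -0.18 and PROM1 at -0.09, with intervals that span 0. The PTPRC value is its HPC difference alone. For this stage-dependent genotype difference, 0 of the 9 and 0 of 21543 genes passed by limma, while 1 and 1281 (5.95%) had an unadjusted p under 0.05.

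**Figure D3:**
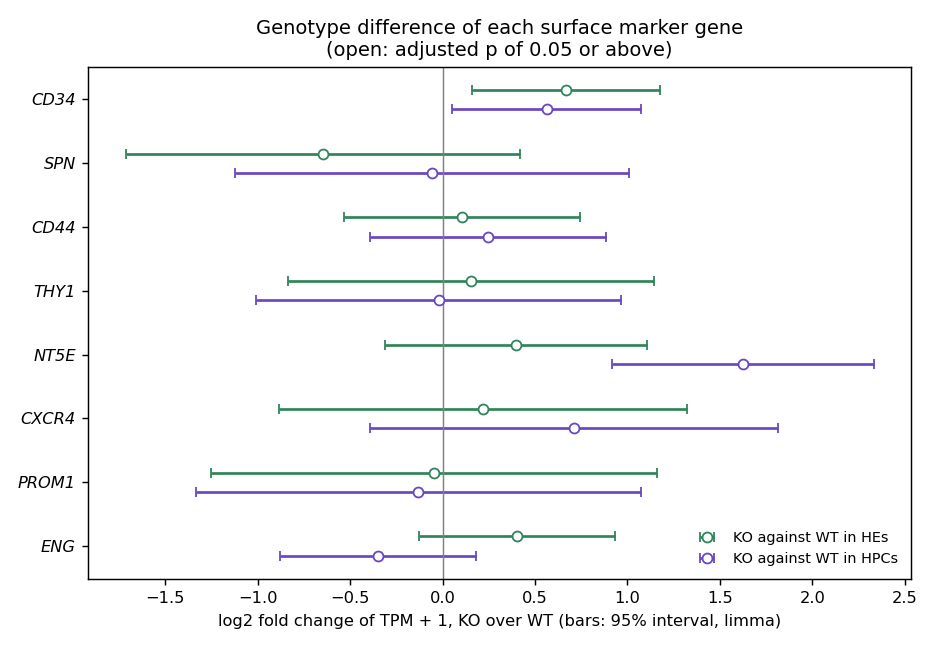
Difference between KO and WT cells for 8 tested genes as log2 fold change of TPM + 1 (horizontal axis), in HEs and in HPCs, with 95% limma intervals as bars. All points are open because no adjusted p was under 0.05; the unadjusted interval lies above 0 for CD34 at both stages and for NT5E in HPCs.

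Ligands, enzymes and cytoplasmic partners of the antigens were followed as a list of 25 genes. In HPCs against HEs, 0 rose and 11 fell in WT cells (median -0.89), and 0 rose and 12 fell in KO cells (median -0.91), beside medians of -0.01 and 0.03 over all genes. Over all tested genes, 3.32% rose and 6.59% fell in WT cells, and 5.5% rose and 7.24% fell in KO cells. The linkers between sialomucins or CD44 and the actin skeleton fell in part. On the log2 scale, EZR, which encodes ezrin, was at -1.25 in WT cells and -1.43 in KO cells, and RDX, which encodes radixin, was at -1.69 and -1.27, all past the threshold. MSN, which encodes moesin, had between 356 and 503 TPM in HPCs, against 632 to 792 TPM in HEs, and passed in KO cells (-0.78, adjusted p = 0.0250) and not in WT cells (-0.64, adjusted p = 0.0600). CD34's close relative PODXL, the sialomucin podocalyxin, was 81.5 and 68.7 TPM in WT HEs and 6.64 and 4.79 TPM in WT HPCs, a difference of -3.51, and the KO difference was -3.28. PODXL was highest in KO hESCs (390.3 and 372 TPM), where CD34 was near 1 TPM.

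Of 3 receptors that work with endoglin, 2 fell in both genotypes and 1 did not pass. ACVRL1, which encodes the kinase ALK1, changed by -3.16 in WT and -3.31 in KO cells, and TGFBR2, the type II receptor for TGF-β, by -1.28 and -1.36, while TGFBR1 was at 0.19 and 0.51 (adjusted p = 0.779 and 0.306). ENTPD1, the ecto-enzyme CD39 that supplies AMP to CD73, changed by -2.49 and -1.70. ADORA2A, an adenosine receptor, changed by -1.29 in KO cells and was at -0.89 in WT cells (adjusted p = 0.0619). The other adenosine genes of the list, the receptor ADORA2B (0.19 in WT and 0.86 in KO cells, adjusted p = 0.768 and 0.0836) and the deaminase ADA (0.21 and 0.18, adjusted p = 0.702 and 0.706), lay above 0 and did not pass. ACKR3, the second receptor for CXCL12, changed by -3.80 and -2.95. CXCL12 itself was 34.0 and 25.2 TPM in KO hESCs and at most 6.19 TPM in any sorted library.

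Among these 25 genes none passed between genotypes in HEs (median 0.11) or HPCs (median 0.19). PODXL was higher in KO cells without overlap at both stages, by 0.68 in HEs (adjusted p = 0.786) and by 0.91 in HPCs (adjusted p = 0.238). ACVRL1, TGFBR1, CXCL12 and PROM2, a relative of PROM1, had the same order of libraries, which 3.37% of all genes had, as above. These genes were picked out after their values were seen. Some of the orders were narrow or near the floor. ACVRL1 was 11.42 and 10.17 TPM in WT HPCs and 11.48 and 13.55 TPM in KO HPCs. CXCL12 was 0.27 and 0.84 TPM in WT HEs and 0.96 and 1.53 TPM in KO HEs. PROM2 was 0 and 0.46 TPM in WT HPCs and 1.89 and 0.99 TPM in KO HPCs.

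The wider endothelial programme fell with CD34 and ENG. The HE gate also required CD31, an antigen of endothelium, and the part of that gate in this fall was not tested. Over all tested genes, 6.59% fell and 3.32% rose in WT cells (median -0.01), and 7.24% fell and 5.5% rose in KO cells (median 0.03). Of 14 endothelial surface genes, 12 fell and 0 rose in WT HPCs against HEs (median -2.74), and 13 fell and 0 rose in KO cells (median -2.51). CD93 (-4.21 in WT cells), a lectin-like receptor, and CLDN5 (-3.66), a tight junction protein, fell furthest. Of 10 arterial genes 7 fell in each genotype (medians -2.40 and -1.73), led by SOX17 (-4.31) and the Notch ligand DLL4 (-3.50), and all 4 venous genes fell (medians -3.10 and -3.18), led by the apelin receptor APLNR (-4.47) and NR2F2 (-4.26). Of 14 blood surface genes tested of 15, 5 rose and 1 fell in WT cells (median 1.55), and 4 rose and 1 fell in KO cells (median 0.68). ITGA2B, the platelet integrin CD41, rose by 4.21 in WT cells and CD84 by 3.48, while KIT, the stem cell factor receptor, was at -2.38.

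Other antigens stained in the study's flow cytometry differed between the gates in part. CD33, a myeloid lectin, rose by 2.90 in WT cells and 2.94 in KO cells on the log2 scale. The endothelial receptor KDR changed by -2.80 and -2.30, and CDH5, which encodes VE-cadherin, by -2.75 and -2.48. TFRC, the transferrin receptor, rose by 1.73 (adjusted p = 0.00247) and 2.16 (adjusted p = 0.000722). BSG, the immunoglobulin-like protein basigin, was at -0.18 and -0.45. It carries the human-cell antigen that the gates of both stages required, and the part of that gate in its level was not tested. ITGAM, an integrin of myeloid cells, was at 0.64 and 0.51 and had between 0.75 and 3.97 TPM in the sorted libraries. ANPEP, the aminopeptidase CD13, was at -1.02 and -0.73. None of BSG, ITGAM and ANPEP passed in either genotype (adjusted p between 0.148 and 0.634). CD14 was at most 0.22 TPM and CD86 at most 0.81 TPM in any library, so both fell under the filter on low values and were not tested.

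Between genotypes, none of these lists had a gene that passed in HEs or in HPCs. The endothelial genes had a median of 0.19 in HEs and 0.32 in HPCs, the arterial genes -0.04 and 0.11, the venous genes 0.07 and -0.06, and the blood surface genes -0.14 and -0.43. The stromal genes had a median of -0.45 in HEs, where all 9 were below 0, and -0.08 in HPCs. KIT, at 21.8 and 23.2 TPM in WT HEs and 45.2 and 40.1 TPM in KO HEs, was the 1 blood surface gene whose KO libraries lay above its WT libraries at both stages. It was higher in KO cells by 0.89 in HEs (adjusted p = 0.793) and by 1.39 in HPCs (adjusted p = 0.205), and was picked out after its values were seen. EMCN, an endothelial sialomucin, showed the same order, with differences of 1.12 and 0.77.

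**Figure D4:**
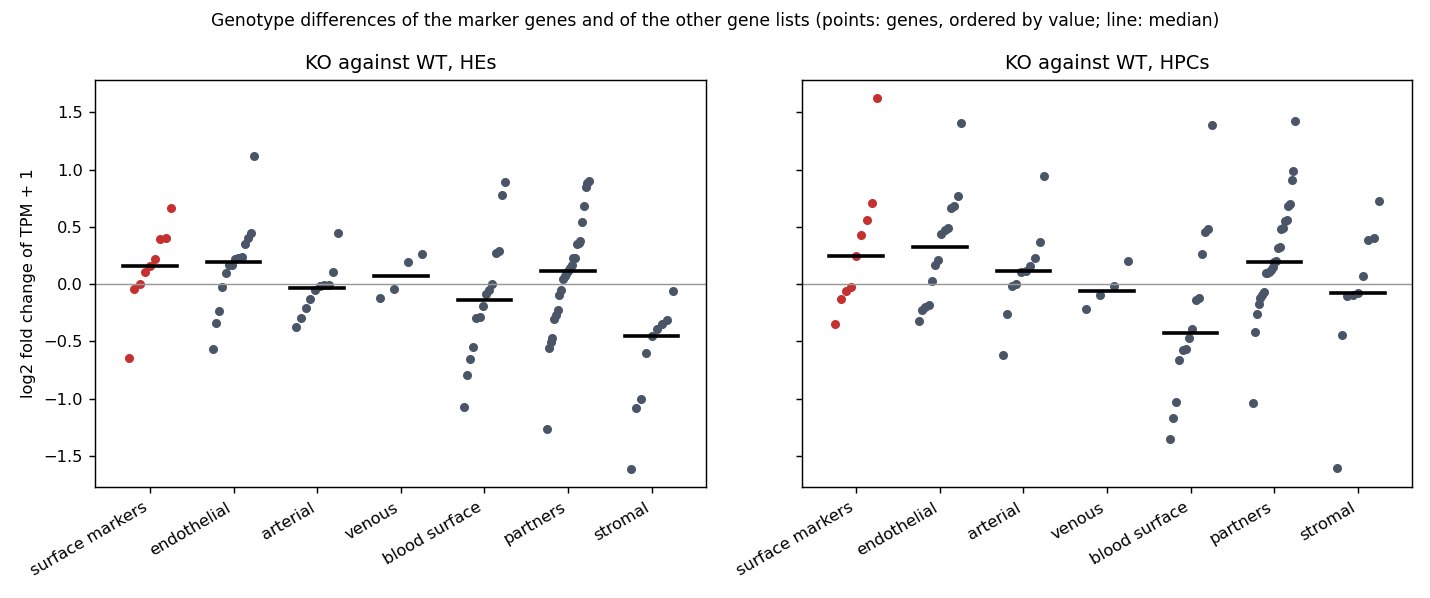
Differences between KO and WT cells as log2 fold change of TPM + 1 (vertical axis) for the surface markers and for 6 other gene lists, in HEs (left) and HPCs (right). Each point is a gene, ordered by value within its list, and lines are medians; the marker medians are 0.15 and 0.25 and no point passed the threshold.

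The genes whose pattern was most like each antigen are given by Pearson r of log2(TPM + 1) over the 10 libraries, among 11923 genes with a mean of at least 5 TPM. The points share 3 stages, the TPM scaling and the replicate libraries, so r mostly reflects the stages. For CD34 they were PLVAP (r = 0.997), HOXB5 and KALRN, and for ENG they were BGN (0.996), PLXND1 and GNAI1. For NT5E they were LPL (0.991), GIMAP4 and PRCP. For SPN they were NR4A1 (0.994), HDC and LDB1, for CD44 PROS1 (0.995), AC007283.5 and ADAMTS9, for THY1 MTCH1 (0.991), APP and FMNL2, and for PROM1 CARM1 (0.992), ASAP3 and MTA3. CXCR4 was closest to DPCD (0.972), NT5E (0.972) and LPL. The near-absent genes had the weakest likeness, FOPNL for PTPRC (0.939) and SLC4A7 for CD38 (0.948).

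Among the antigens themselves, CD34 ran with CD44 (r = 0.97) and ENG (0.96) over the 10 libraries, and NT5E ran with CXCR4 (0.97). SPN and THY1 ran against each other (-0.95). CD34 and SPN, the 2 gates, had an r of 0.31, and CD34 and THY1 one of -0.11. The HE libraries combined high CD34, ENG, NT5E and THY1 with low SPN, and the HPC libraries combined CD34, CD44 and SPN with lower NT5E, THY1 and CXCR4, in both genotypes.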

How the data were processed

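RNA-Seq reads were single-end. The sources credit the processing to Trimmomatic, Bowtie and RSEM with hg19, and the processing notes also name mm10 without a role. The authors deposited gene-level TPM values, 1 table per library, which keep no read depth, so no counting interval could be given. The study's own Cuffdiff comparisons were not used here. Groups came from the sample titles. The 10 genes and all gene lists were chosen with earlier results of these data known. Genes with at least 1 TPM in at least 2 libraries (21543 of 56266) were tested on log2(TPM + 1) with limma 3.58.1 in R 4.3.3, with 5 groups in 1 fit, eBayes with a trend and Benjamini-Hochberg adjustment over all tested genes at 0.05. The p-values are two-sided, and fold changes on this scale understate those of low genes. Ratios are of mean TPM. The fit was also run on simulated data. The changes set there were larger than the genotype differences of the 9 genes, so that run does not bear on differences of their size. The 9 tested genes were named in each comparison. Other lists were given by counts, medians and up to 4 examples each, the 2 largest rises and falls among calls in WT HPCs against WT HEs; partners and stained antigens, KIT, EMCN, COL3A1, DCN and LUM were named beyond that rule, and 1 gene of the stained antigens, with the counts that include it, is not reported here. The 3 genes most like each antigen were named. Alternatives were a pseudocount of 0.1, no filter, only the libraries compared, quantile normalization, rescaling without 37 mitochondrial genes, eBayes without trend, a replicate block and each library left out. Replicate numbers were not taken to pair the samples, a point that the sample titles do not settle. Gene positions are GRCh37 (GENCODE) and promoter windows RefSeq GRCh38.p14, where 8 of 10 genes matched and only the 250 bases before each start were used. ACKR3 is listed under its older symbol and was matched by identifier.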

Additional observations from a re-analysis of the deposited data

How the results depend on the processing

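Of 58 gene results, 1027 values were recomputed. Without 1 library, 540 kept their direction and side of the threshold, 12 lost and 1 gained a call and 27 turned sign; under the other settings 424 kept both, 17 lost a call and 6 turned sign. With only the libraries compared in the fit, 0 of the 9 genes passed from HE to HPC in WT and in KO cells, a fit of 4 libraries. The signs that turned belonged to values that did not pass. Rescaled without mitochondrial genes, KO against WT in HPCs was 0.037 for SPN and 0.069 for THY1, and THY1 in KO HEs against KO hESCs was -0.030 (-0.015 by quantile normalization). With a pseudocount of 0.1, PROM1 was 0.42 for KO against WT in HPCs and 0.46 for the difference between stages. Without 1 library, KO against WT in HEs ran from -1.46 to 0.16 for SPN, -0.0091 to 0.22 for CD44, -0.35 to 0.79 for CXCR4 and -0.46 to 0.37 for PROM1. In HPCs it ran from -0.21 to 1.07 for PTPRC, -0.85 to 0.80 for THY1, -0.84 to 0.58 for PROM1 and -0.71 to 0.016 for ENG. KO HEs against KO hESCs ran from -0.12 to 0.15 for THY1 and KO HPCs against KO hESCs from -0.63 to 0.75 for PTPRC. The difference between stages ran from -0.44 to 0.23 for CD34, -0.22 to 1.40 for SPN, -0.079 to 0.36 for CD44, -1.003 to 0.65 for THY1, -0.079 to 1.06 for CXCR4 and -0.80 to 0.63 for PROM1. The cause of these turns was not tested. From HE to HPC, 5 to 6 genes passed without 1 library in either genotype, and 6 without any 1 library in both comparisons with hESCs. These counts include PTPRC, listed at 0 in HEs, without KO hESC replicate 1 and with the pseudocount of 0.1 in KO comparisons with HEs.

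The correlation of replicate differences was 0.12 between WT and KO HEs, 0.06 between WT and KO HPCs and from -0.01 to 0.03 between other groups, so the numbers were not taken to pair the samples. With the replicate number as a block, 6 genes passed in each stage comparison and 0 between genotypes, as without it. With the block among the 8 sorted libraries, chosen after seeing that their replicate-2 file headers share a suffix of unstated meaning, 5 passed from HE to HPC in each genotype, CXCR4 being lost (adjusted p = 0.0662 in WT and 0.0912 in KO cells). TPM hold no depth, so the precision of the low values of CXCR4, PROM1, PTPRC and CD38 is unknown.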
